A study of Arabidopsis thaliana with 8 samples.

Results

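The HOT3-EYFP line was compared with wild type (WT) to find which small RNAs still differed after HOT3 was put back into hot3-2, and which differed only in the complemented line. HOT3 (AT1G76810) encodes eIF5B1, a translation initiation factor of Arabidopsis thaliana. The comparison used 2 libraries of HOT3-EYFP and 2 of WT out of 8 in the series. Its units were 100-bp genome windows that reached 10 counts in 2 or more of the 8 libraries, taken for each small RNA length from 18 to 26 nt on its own. There were 61078 such window and length combinations, of 10770129 in the files (1196681 windows at 9 lengths). Nuclear windows outside the 45S rDNA, rDNA windows, chloroplast windows and mitochondrial windows were counted apart.

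WT was Col-0. The hot3-2 mutant carried a T-DNA insertion in HOT3, and HOT3-EYFP carried the same insertion together with a genomic HOT3 fragment under the HOT3 promoter, fused to EYFP, introduced by Agrobacterium along with Basta resistance. A second insertion allele, hot3-3, gave 2 further libraries. All were whole 18-day-old seedlings without further treatment, grown in 16 h of light and 8 h of dark at 23 °C per the labels. Total counts were 6793502 and 7247099 in WT and 8210328 and 7026808 in HOT3-EYFP, and from 7008968 to 7783291 in the 4 mutant libraries. The study calls the libraries of a genotype independent replicates. Nothing in the sources used here says whether they came from separate cultures or whether more than one transgenic line was sequenced, so the p-values measure the spread between these libraries, and an effect of complementation cannot be told apart from one of this line.

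Plant small RNAs are cut from double-stranded precursors by Dicer-like enzymes. In general DCL1 makes 21-nt miRNAs from hairpins of MIR genes, DCL4 and DCL2 make 21- and 22-nt siRNAs from transcripts copied by RNA-dependent RNA polymerases, including those of TAS genes and of transgenes, and DCL3 makes the 24-nt siRNAs that guide DNA methylation. Fragments of rRNA, tRNA and organellar RNA of the same sizes enter a size-selected library too.

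The sequences below come from genes and windows on which the results turn. Mature miRNAs are given for MIR genes that fell and for MIR399a, whose 22-nt rise lay outside the window of its miRNA. They come from the RefSeq annotation of the TAIR10.1 assembly, with the seed (bases 2 to 8) in capitals.

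miR165b (identical to miR165a-3p): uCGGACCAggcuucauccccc

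miR166a-3p (identical to miR166e-3p): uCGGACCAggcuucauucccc

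miR396b-5p: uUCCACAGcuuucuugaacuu

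miR843: uUUAGGUCgagcuucauugga

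miR841a-5p: uACGAGCCacuugaaacugaa

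miR3932b-5p: uUUGACGUgcucgaucugcuc

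miR399a: uGCCAAAGgagauuugcccug

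miR165 and miR166 share the seed CGGACCA, and the others each have their own. The next 3 sequences are windows of 24-nt siRNAs that were present in one genotype and at 0 in the other, on the plus strand of TAIR10.1, with CG dinucleotides, the main sites of maintained DNA methylation, in capitals. None overlaps an annotated gene. The first lies at chr4:6563900-6563999, the second at chr3:16755100-16755199 (this one holds no CG) and the third at chr1:6594000-6594099.

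Gained on chromosome 4: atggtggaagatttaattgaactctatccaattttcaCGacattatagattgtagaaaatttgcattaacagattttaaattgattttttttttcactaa

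Gained on chromosome 3: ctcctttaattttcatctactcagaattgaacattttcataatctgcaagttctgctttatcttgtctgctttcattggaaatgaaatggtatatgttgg

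Lost on chromosome 1: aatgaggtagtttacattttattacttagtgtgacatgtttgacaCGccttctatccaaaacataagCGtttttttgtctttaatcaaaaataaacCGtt

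In the complemented line rDNA windows took a larger share of counts than in WT, and nuclear windows a smaller share. Shares of a total do not measure amounts, since a rise in one lowers the others. Nuclear windows outside rDNA took 42.1% and 41.7% of counts in WT, 51.1% and 50.6% of those of hot3-2, and 32.7% and 32.2% of those of HOT3-EYFP. The shares of rDNA windows were 44.0% and 44.3% (WT), 33.7% and 34.0% (hot3-2) and 52.0% and 52.2% (HOT3-EYFP). In both shares HOT3-EYFP lay on the far side of WT from hot3-2, with no overlap between genotypes. The chloroplast share was 13.2% and 13.3% in WT and 14.5% and 14.8% in HOT3-EYFP, and the mitochondrial share was 0.692% and 0.659% against 0.826% and 0.87%. The 24-nt class took 20.9% ± 0.14 (SD, n = 2) of all counts in WT and 17.6% ± 0.071 in HOT3-EYFP, and the 21-nt class 13.3% in both WT libraries and 11.7% and 11.6% in HOT3-EYFP. At 2 libraries against 2, an exact two-sided permutation test cannot go below p = 0.333, so these shares are given without a test.

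**Figure D1:**
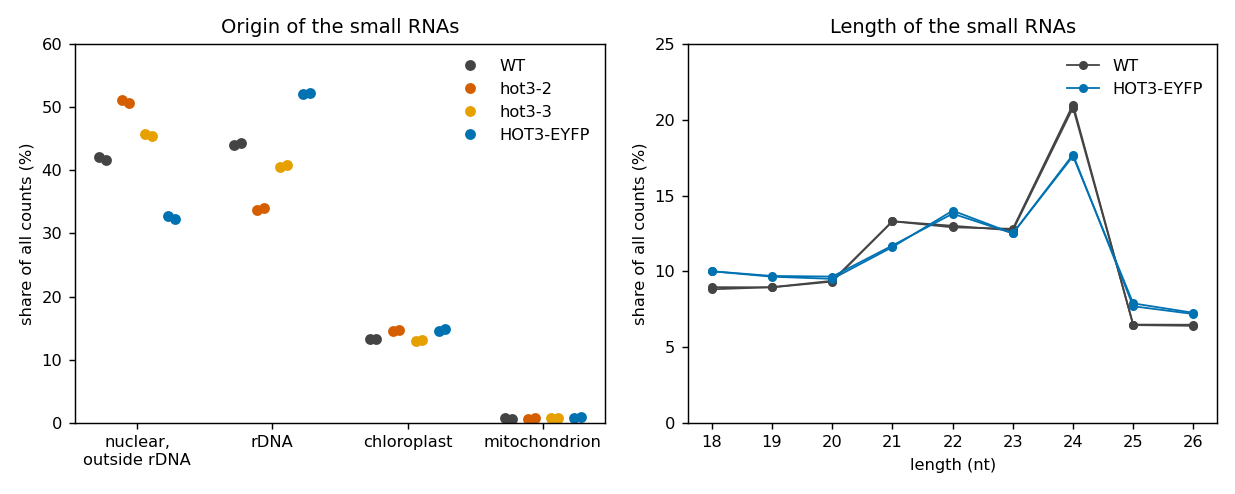
Percent of all counts by genome compartment in all 8 libraries (left) and by length in the WT and HOT3-EYFP libraries (right), 1 point per library. HOT3-EYFP had the highest rDNA share (52.0% and 52.2%) and the lowest nuclear share (32.7% and 32.2%) of the 4 genotypes.

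These shares bear on every fold change. Scaling within a length class by TMM (trimmed mean of M values), used below, moved log2 differences between HOT3-EYFP and WT upward relative to scaling by total counts, by 0.30 at 21 nt, 0.35 at 22 nt, 0.44 at 23 nt and 0.48 at 24 nt, by at most 0.05 in size at 18 to 20 nt, and by -0.17 and -0.26 at 25 and 26 nt. Windows outside rDNA at 24 nt had a median log2 difference of -0.02 under TMM, so a change below is relative to the bulk of the windows of that length.

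A window was called when it differed at least 2-fold with an adjusted p under 0.01 in edgeR's quasi-likelihood test, adjusted by Benjamini and Hochberg over all windows of that length. Outside rDNA, 261 of 55139 nuclear combinations were called, 133 higher and 128 lower in HOT3-EYFP. They fell on 164 windows, of which 56 were called at 2 or more lengths and 0 in both directions. Calls were 32 at 21 nt (11 higher), 46 at 22 nt (26 higher), 57 at 23 nt (36 higher) and 105 at 24 nt (55 higher), and 3, 6, 7, 3 and 2 at 18, 19, 20, 25 and 26 nt. Over all compartments, the percent of tested windows called was 0.211 at 18 nt, 0.284 at 19 nt, 0.353 at 20 nt, 0.77 at 21 nt, 0.659 at 22 nt, 0.626 at 23 nt, 0.481 at 24 nt, 0.23 at 25 nt and 0.197 at 26 nt. With total counts as library size, 4 of 38 calls were higher at 21 nt, 12 of 46 at 22 nt and 33 of 156 at 24 nt, so the balance of rises and falls depended on the scaling. Counts were lower when 1 library was left out: without WT replicate 1, WT replicate 2 or HOT3-EYFP replicate 2 there were 19, 16 and 18 at 21 nt, 25, 28 and 25 at 22 nt and 60, 54 and 68 at 24 nt. Without HOT3-EYFP replicate 1 there were 25, 33 and 73 at 21, 22 and 24 nt.

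Each called window was then set against hot3-2, using the same WT and HOT3-EYFP libraries. A difference was counted as left by complementation when hot3-2 was also called against WT in that direction, and as added when HOT3-EYFP was also called against hot3-2 in that direction. At 24 nt, 64 of the 105 called windows were left and 30 added, with 2 of these counted as both and 13 as neither. At 21 nt, 15 of 32 were left and 13 added. At 22 nt, 23 of 46 were left and 12 added. Of 4086, 7821 and 25930 nuclear windows tested at 21, 22 and 24 nt, 233, 218 and 270 were called in hot3-2 against WT. In HOT3-EYFP against hot3-2 the calls were 274, 268 and 228, each in either direction. Because the comparisons share libraries, spread in those libraries enters both, and these counts describe the called windows without a test of how much of the mutant difference remained. Among rDNA and mitochondrial windows, 0 of 22 and 0 of 21 calls were left, and among chloroplast windows 1 of 18. Of rDNA calls, 4 of 4, 8 of 9 and 8 of 9 were added at 22, 23 and 24 nt. In HOT3-EYFP against hot3-2, 87 of 128, 89 of 124 and 78 of 136 tested rDNA windows were called there. At 23 and 24 nt 6 of 7 and 2 of 5 mitochondrial calls were added, and 1 of 4 and 5 of 9 chloroplast calls. At 21 and 22 nt every organelle call was added. Over tested windows at 23 and 24 nt, calls against hot3-2 were 24 of 87 and 15 of 132 (mitochondrial) and 146 of 403 and 122 of 400 (chloroplast).

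**Figure D2:**
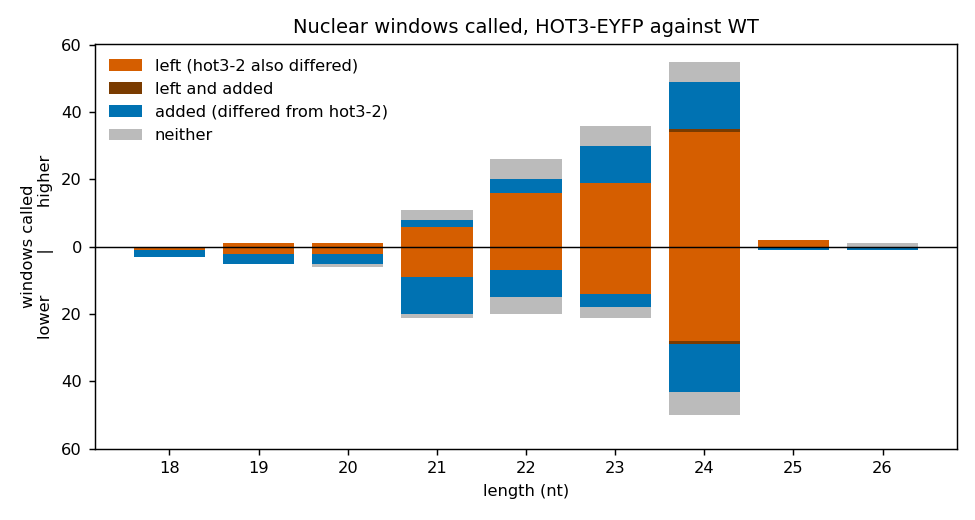
Number of nuclear windows outside rDNA called in HOT3-EYFP against WT at each length, rises above and falls below 0, split by whether hot3-2 also differed from WT (left), HOT3-EYFP differed from hot3-2 (added), both or neither. At 24 nt, 35 of 55 rises and 29 of 50 falls were left.

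The largest differences at 24 nt were windows present in one genotype and at 0 in the other. Called or not, this pattern was counted in 23 tested windows with WT at 0 and in 75 with HOT3-EYFP at 0. Such windows passed the filter only through genotypes that held counts there, so mutant counts in them describe and are no support. Both WT libraries were at 0 in 14 of the 55 called rises, and in 13 of these both hot3-2 libraries, and likewise in 13 both hot3-3 libraries, held 10 or more counts. Both HOT3-EYFP libraries were at 0 in 25 of the 50 called falls, and hot3-2 was at 0 there in 12 and hot3-3 in 3. Most of these windows were not repeats: 11 of the 14 and 20 of the 25 had at least 90% of their 24-mers once in the genome, as had 65 of all 105 called windows (61.9%, against 40.6% of tested ones). Median GC was 34.0% in called and in tested windows, and 57 of the 105 overlapped no annotated gene. By annotation, 0.309% of tested windows without a gene were called, 0.656% of those in protein-coding genes, 0.202% in pseudogenes and 8.38% in tRNA genes.

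Among the gains at 24 nt, the window at chr4:6563900 had counts of 0 and 0 (WT), 168 and 178 (hot3-2), 177 and 170 (hot3-3) and 72 and 77 (HOT3-EYFP). The level in HOT3-EYFP was at least 32.2-fold that in WT (adjusted p = 7.8e-07), taking 3 counts per library as the floor for 0, and lay below that of hot3-2 by 0.78 on the log2 scale (adjusted p = 0.0396). This siRNA site was absent from WT reads and present in both mutant alleles and in the rescued line.

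The window at chr3:16755100 counted 0 and 0 (WT), 70 and 69 (hot3-2), 58 and 71 (hot3-3) and 61 and 80 (HOT3-EYFP) (at least 30.7-fold, adjusted p = 8.29e-06). There the difference between HOT3-EYFP and hot3-2 did not pass the threshold (log2 difference 0.46, adjusted p = 0.399). A window at chr1:9938600, in the long non-coding RNA gene AT1G06147, had 0 and 0 in WT against 124 and 86 in HOT3-EYFP, at least 44.6-fold (adjusted p = 6.11e-07). Its mutant counts, 72, 95, 137 and 143, overlapped those of HOT3-EYFP.

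At AT3G09960, a gene of the calcineurin-like phosphoesterase family, 2 neighbouring windows rose at 24 nt. The window at chr3:3063500 had 1 and 0 counts (WT), 73 and 92 (hot3-2), 86 and 60 (hot3-3) and 86 and 59 (HOT3-EYFP), a ratio of HOT3-EYFP to WT of 186 (95% counting interval 32.9 to 7410, adjusted p = 6.46e-06). At 22 nt the same window went from 0 and 0 to 44 and 31, at least 14.6-fold (adjusted p = 4.69e-06). These siRNAs were thus gained at more than one length, and were present in both mutants and in the complemented line.

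The window at chr4:10180700, in the long non-coding RNA gene AT4G06810, was both left and added. It counted 0 and 0 (WT), 9 and 15 (hot3-2), 23 and 13 (hot3-3) and 49 and 45 (HOT3-EYFP). The rise over WT was at least 20.2-fold (adjusted p = 0.000143), and the rise over hot3-2 was 2.39 on the log2 scale (adjusted p = 0.00865). Here the complemented line lay further from WT than its mutant parent did.

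Falls took the reverse form. At chr1:6594000 the counts were 179 and 247 (WT), 2 and 0 (hot3-2), 4 and 0 (hot3-3) and 0 and 0 (HOT3-EYFP) (at least 54.7-fold lower, adjusted p = 3.2e-05). DESeq2's Wald test did not call this window. At chr2:13127200 they were 156 and 150 (WT), 4 and 1 (hot3-2), 9 and 9 (hot3-3) and 0 and 0 (HOT3-EYFP) (at least 39.5-fold lower, adjusted p = 6.28e-06). At chr5:15841000 WT had 123 and 100, and the other 6 libraries were all at 0 (at least 28.8-fold lower, adjusted p = 0.000147). These sites were WT-specific among the 4 genotypes, or nearly so.

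In other falls hot3-3 kept part of the siRNAs while hot3-2 and HOT3-EYFP, which share 1 insertion allele and parent, did not. At chr5:16149500 WT counted 108 and 70, hot3-3 14 and 11, and the 4 libraries of hot3-2 and HOT3-EYFP 0 (at least 23.1-fold lower, adjusted p = 0.000173). In the pseudogene AT3G22955, the window at chr3:8138700 had 319 and 323 counts at 24 nt (WT), 0 and 0 (hot3-2), 162 and 174 (hot3-3) and 2 and 0 (HOT3-EYFP). The same window fell at 21 nt from 93 and 98 to 0 and 2, a ratio of WT to HOT3-EYFP of 84.3 (23.0 to 701), and at 22 nt from 24 and 31 to 0 and 0 (at least 7.72-fold lower, a call lost without either HOT3-EYFP library). In DEG6, a gene of the Deg protease family, 2 adjoining windows fell at 24 nt, and chr1:18948300 went from 67 and 34 in WT to 0 and 0 in HOT3-EYFP and in hot3-2 (at least 13.1-fold lower, adjusted p = 0.00151) with 17 and 17 in hot3-3. Its call at 24 nt was lost without WT replicate 1 or either HOT3-EYFP library, and the fall at 21 nt (30 and 28 to 0 and 0, at least 8.49-fold) with the replicate block and without any 1 of the 4 libraries.

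Further windows followed 1 of these patterns at 22 nt. At chr1:19744200, with no gene, WT had 74 and 100 counts, hot3-2 1 and 0, hot3-3 9 and 14 and HOT3-EYFP 2 and 0, a ratio of WT to HOT3-EYFP of 74.0 (20.2 to 616, adjusted p = 8.43e-06). At chr5:24100700, also without a gene, counts rose from 4 and 4 in WT to 21 and 22 (log2 difference 2.63, SE 0.45, adjusted p = 0.00248), with 33 and 34 in hot3-2. This rise lost its call with total counts as library size, with DESeq2 and without any 1 of the 4 libraries. In the protein-coding gene AT3G06435, whose window at chr3:1968500 has no 24-mer that is unique in the genome, 51 and 48 counts in WT became 86 and 91 in HOT3-EYFP (1.08, SE 0.17) against 507 and 540 in hot3-2, so that most but not all of the mutant's excess was gone. That window was not called when library size was the total count, in the fit of 4 libraries or without WT replicate 2 or HOT3-EYFP replicate 2.

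Falls that complementation added included 1 window called at 3 lengths and 1 chromosomal neighbourhood. They were not the largest, and larger added falls lay in AT3G57480 and the tRNA-Gly window described below and in other windows. At chr5:17524300, with no annotated gene, the 24-nt counts were 153 and 208 (WT), 379 and 421 (hot3-2), 323 and 288 (hot3-3) and 40 and 35 (HOT3-EYFP). At 22 nt the same window had 100 and 124 (WT), 255 and 262 (hot3-2) and 24 and 18 (HOT3-EYFP), a fall of 2.18 (SE 0.23) on the log2 scale (adjusted p = 1.43e-05). The mutants had the most siRNAs here and the complemented line the fewest.

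On chromosome 4, small RNAs of MIR5996 (7882765 to 7882889), MIR841a (7885251 to 7885462) and MIR3932b (7890570 to 7890719) were all called lower at 1 or more lengths. MIR5996 shares windows with UNE15 and MIR3932b with AT4G13575, and without strand their reads cannot be told apart. At 24 nt MIR5996 counted 167 and 185 (WT), 517 and 519 (hot3-2), 359 and 342 (hot3-3) and 73 and 50 (HOT3-EYFP) (log2 difference -1.16, SE 0.14, adjusted p = 0.000881). At 21 nt the UNE15 window at chr4:7882900 went from 77 and 61 in WT to 6 and 13 (-2.65, SE 0.43, adjusted p = 0.00506), with 75 and 66 in hot3-2. The 24-nt call of MIR5996 was lost in the fit of 4 libraries and without WT replicate 2 or HOT3-EYFP replicate 2. The 21-nt call of the UNE15 window was lost with the replicate block and without WT replicate 1, WT replicate 2 or HOT3-EYFP replicate 1. Nearby, the copper-regulated MIR397b had 44 and 25 counts at 21 nt in WT and 18 and 27 in HOT3-EYFP, and was not called.

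In AT3G57480, a zinc finger gene, the 22-nt counts at chr3:21277300 were 26 and 24 (WT), 8 and 16 (hot3-2), 0 and 0 (hot3-3) and 1 and 2 (HOT3-EYFP), a ratio of WT to HOT3-EYFP of 14.2 (4.58 to 71.1, adjusted p = 0.00837). At 24 nt the window went from 203 and 217 to 12 and 8, against 88 and 76 in hot3-2, and was both left and added. Its 22-nt call was lost with DESeq2 and without any 1 of the 4 libraries.

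The rises that the line added at 21 nt were in HOT3 itself. Over the gene, 21-nt counts were 4 and 6 (WT), 2 and 5 (hot3-2), 1 and 3 (hot3-3) and 276 and 257 (HOT3-EYFP), a log2 difference of 5.89 (SE 0.44, adjusted p = 7.31e-05). At 22 nt the counts were 0 and 1 in WT and 91 and 59 in HOT3-EYFP, a ratio of 176 (31.2 to 7010, adjusted p = 6.55e-05). At 24 nt they were 1 and 2 against 32 and 23, which was not called (adjusted p = 0.0678). Both HOT3-EYFP libraries thus carried HOT3 siRNAs, mainly of 21 nt, that the 6 others nearly lacked. This also checks the label, since only these plants held the extra copy.

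The transgene carries a genomic fragment that spans chr1:28831369 to 28837784 of TAIR10.1, on the minus strand, and most of the siRNAs lay in its coding span. In the 49 windows inside that span, 21-nt counts rose from 4 and 6 in WT to 269 and 250, and 43 of the 49 windows held at least 1 in HOT3-EYFP. The 13 windows of its upstream part had 0 and 0 in WT and 1 and 3 in HOT3-EYFP. In 10 kb beyond the fragment's 3′ end, 103 windows had 8 and 9 counts in WT and 6 and 7 in HOT3-EYFP, and beyond its 5′ end 99 windows had 0 and 1 against 10 and 16. In the 29 windows that are coding throughout, HOT3-EYFP had 162 and 149. The siRNAs thus lay mainly in the coding span, with few in the upstream part of the fragment and a small number of counts beyond its 5′ end. The windows with the largest rises were chr1:28832100 (0 and 2 to 52 and 30, ratio 46.4, 12.4 to 390, adjusted p = 0.00382) and chr1:28831500 (2 and 0 to 28 and 27, ratio 31.1, 8.22 to 264, adjusted p = 0.00726). Each lost its call with the replicate block and without any 1 of the 4 libraries, and the second also with total counts as library size and with DESeq2. The related gene AT1G76820, which adjoins HOT3 in the genome, had 0 and 0 counts in WT and 11 and 17 in HOT3-EYFP, and reads of the 2 genes may be shared where their sequences agree. These counts may largely be the ones given above beyond the fragment's 5′ end, so they are no separate observation.

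**Figure D3:**
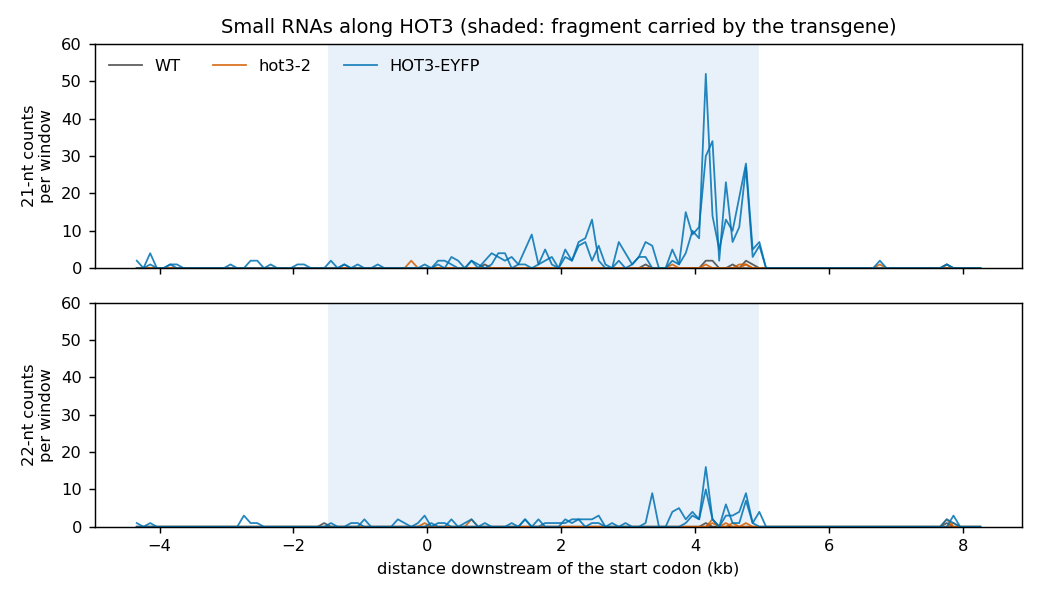
Counts of 21-nt (top) and 22-nt (bottom) small RNAs per 100-bp window along HOT3 against distance downstream of the start codon, 1 line per library of WT, hot3-2 and HOT3-EYFP, with the fragment carried by the transgene shaded. In HOT3-EYFP most counts lay within the coding span (269 and 250 at 21 nt), with 1 and 3 in the upstream part, 9 and 6 in the windows at the ends of the fragment and 10 and 16 in the 10 kb beyond its 5′ end, of which part is drawn.

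miRNAs were taken gene by gene. Counts over each annotated MIR gene were summed, and 195 of 324 MIR genes passed the filter at 21 nt. Of these 0 rose and 8 fell, where 0.728% of all 3161 genes tested at 21 nt were called (0.19% higher, 0.538% lower). With the adjusted p raised to 0.05 and no limit on the fold, 3 were higher and 19 lower. The median log2 difference was -0.17 over the MIR genes and -0.03 over all genes. At 20 nt 3 of 127 were lower (0.213% of all genes called), at 22 nt 2 of 114 were higher and 4 lower (0.628%), and at 24 nt 2 of 88 were lower (0.86%). In all 13 MIR genes were called at 1 or more of these lengths, 8 in the fit of the 4 libraries alone and 7 without WT replicate 1.

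The leaf polarity miRNAs miR165 and miR166, which direct cleavage of class III HD-ZIP mRNAs, were lower in hot3-2 than in WT and were still lower in HOT3-EYFP. MIR165b counted 1906 and 2315 at 21 nt (WT), 518 and 460 (hot3-2), 349 and 299 (hot3-3) and 410 and 222 (HOT3-EYFP). The log2 difference of HOT3-EYFP from WT was -2.58 (SE 0.21, adjusted p = 0.00012), and its difference from hot3-2 did not pass the threshold (-0.24, adjusted p = 0.433). At MIR165a, by contrast, HOT3-EYFP also lay below hot3-2 at 21 nt (-0.51, adjusted p = 0.00107), by less than 2-fold. MIR165b fell likewise at 20 nt (103 and 115 to 18 and 10, -3.04, SE 0.32) and at 22 nt (412 and 482 to 129 and 78, -1.89, SE 0.19). Its 20-nt call was lost in the fit of 4 libraries, with the replicate block and without any 1 library.

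MIR166a, the most abundant of the called genes, had 15825 and 17039 counts at 21 nt (WT), 6247 and 5730 (hot3-2) and 7038 and 6464 (HOT3-EYFP) (-1.10, SE 0.067, adjusted p = 2.25e-05). It had regained part of the level lost in hot3-2 (HOT3-EYFP minus hot3-2 0.60, adjusted p = 0.000351). Because the mature sequences printed above occur in several genes, a read may be counted at any of them, and the copies were also summed. Over both MIR165 genes the counts were 5766 and 6067 (WT), 3618 and 3648 (hot3-2) and 2154 and 1765 (HOT3-EYFP) (-1.42, SE 0.05, adjusted p = 6.71e-07). Over 7 MIR166 genes they were 20402 and 21736 (WT), 9193 and 9265 (hot3-2) and 10172 and 8677 (HOT3-EYFP), -0.98 (SE 0.034, adjusted p = 6.71e-07), just under 2-fold.

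MIR396b, whose miRNA targets mRNAs of growth-regulating factors, fell from 9323 and 9547 in WT to 4189 and 3255 in HOT3-EYFP (-1.17, SE 0.061, adjusted p = 8.04e-06), near the 5591 and 5332 of hot3-2 and the 3959 and 3852 of hot3-3. Its relative MIR396a had 5454 and 5671 in WT and 4347 and 3386 in HOT3-EYFP, a log2 difference of -0.35 that was under 2-fold. At 21 nt MIR396b thus lay low in all 3 genotypes with a disrupted HOT3 gene, complemented or not. At 20 nt it had 1231 and 1209 counts (WT), 1179 and 1074 (hot3-2), 836 and 740 (hot3-3) and 705 and 560 (HOT3-EYFP) (-1.03, SE 0.11, adjusted p = 0.00624), and there the difference of hot3-2 from WT did not pass the threshold (-0.23, adjusted p = 0.199). The 20-nt call was lost in the fit of 4 libraries, with DESeq2 and without any 1 library.

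MIR843 showed an excess in the mutants and a deficit in the complemented line. It had 159 and 176 counts (WT), 2566 and 2806 (hot3-2), 2191 and 2257 (hot3-3) and 69 and 42 (HOT3-EYFP) (-1.43 against WT, SE 0.14, adjusted p = 0.000356). MIR841a counted 82 and 103 (WT), 242 and 241 (hot3-2), 114 and 116 (hot3-3) and 29 and 18 (HOT3-EYFP) (-1.80, SE 0.25, adjusted p = 0.00334), and MIR3932b 780 and 977 (WT), 1195 and 1341 (hot3-2), 555 and 562 (hot3-3) and 284 and 241 (HOT3-EYFP) (-1.56, SE 0.11, adjusted p = 6.93e-05). For these genes HOT3-EYFP was the lowest genotype and did not overlap the others. The window of miR841a-5p, printed above, had 19 and 22 counts in WT and 9 and 4 in HOT3-EYFP. That of miR841a-3p had more in WT, 30 and 42 against 7 and 9. The mutant alleles parted at MIR3932b, where hot3-3 lay below WT (-0.82, adjusted p = 0.00213) and hot3-2 did not pass the threshold (0.29, adjusted p = 0.136). At MIR841a neither allele passed it (hot3-2 minus WT 1.14, adjusted p = 0.0157, and hot3-3 minus WT 0.15, adjusted p = 0.739). The fit of 4 libraries did not call MIR843 or MIR841a, and MIR841a was also not called with the replicate block or without WT replicate 1, WT replicate 2 or HOT3-EYFP replicate 2.

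Of the other genes called at 21 nt, MIR400, whose miRNA targets pentatricopeptide repeat mRNAs, fell by 1.10 and MIR165a by 1.03. The window where miR400 itself starts had 28 and 34 counts in WT and 34 and 28 in HOT3-EYFP. The fall of MIR400 lay in the neighbouring window at chr1:11786000. The call of MIR400 was lost in the fit of 4 libraries and without WT replicate 1, WT replicate 2 or HOT3-EYFP replicate 1, and that of MIR165a with DESeq2 and without WT replicate 1 or HOT3-EYFP replicate 1. MIR399a, of the phosphate starvation family that targets PHO2, rose at 22 nt from 17 and 34 in WT to 103 and 97 (2.21, SE 0.29, adjusted p = 0.000856), with 69 and 98 in hot3-2, a call lost without WT replicate 1. These 22-nt counts of WT and HOT3-EYFP lay in the window at chr1:10227000, whereas miR399a starts at position 10227165, in the next window. At 21 nt MIR399a had 6 and 7 against 21 and 21 (adjusted p = 0.0996). Also at 22 nt, MIR163, whose miRNA targets methyltransferase mRNAs, rose by 1.01, and MIR779 and MIR166e fell by 1.26 and 1.25. The annotated miR163 is 24 nt long, and MIR163 was not called at 24 nt, so its 22-nt rise is not one of the annotated miRNA. The call of MIR163 was lost in the fit of 4 libraries, when library size was the total count and without WT replicate 1 or HOT3-EYFP replicate 2, and that of MIR779 in the fit of 4 libraries and without any 1 library.

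**Figure D4:**
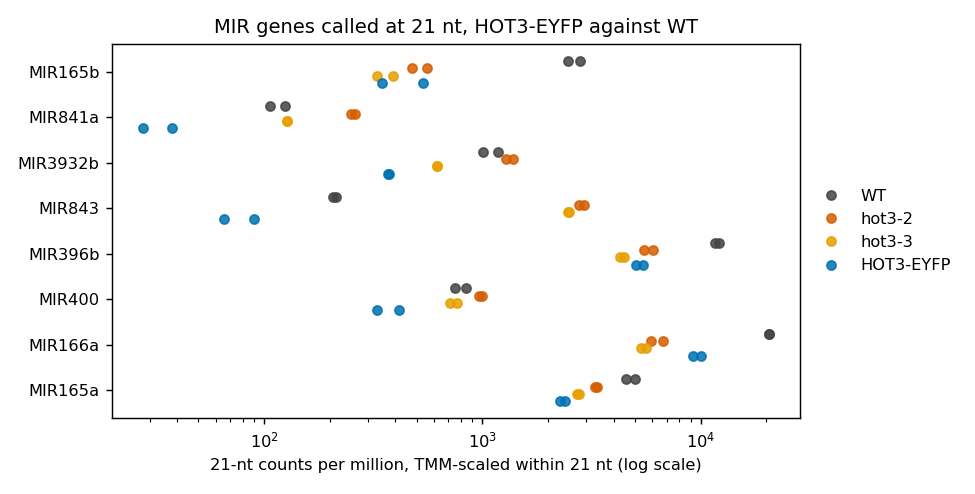
CPM of 21-nt small RNAs (TMM-scaled within 21 nt, log scale) over the 8 MIR genes called in HOT3-EYFP against WT, 1 point per library, coloured by genotype. In all 8 both HOT3-EYFP libraries lay below both WT libraries. MIR843 was highest in hot3-2 and hot3-3, and MIR165b, MIR166a and MIR396b were low in both.

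Families named for function were described by counts at 21 nt, with the shared background of 0.728% called. Of 8 tested leaf polarity genes 3 were lower, with a median of -0.99. Among 7 copper, 9 phosphate and sulfate, 12 phase change and 6 AGO1 and DCL1 control genes, 0 were called, with medians of -0.42, 0.73, -0.46 and -0.86. MIR845a and MIR845b, whose miRNA is known from pollen and served as a sign of other tissue, were not called (median 2.17). MIR845b was at 0 and 0 in WT and at 3 and 0 in HOT3-EYFP. MIR845a had 253 and 228 counts (WT), 24712 and 29299 (hot3-2) and 369 and 208 (HOT3-EYFP), back among the WT values.

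Trans-acting siRNAs came from 8 TAS loci, whose primary transcripts are cut by a miRNA and then processed in phase. None was called at 21, 22 or 24 nt under TMM scaling, but 7 of 8 lay below 0 at 21 nt (median -0.56) and 6 of 8 had an adjusted p under 0.05. TMM moved 21-nt log2 differences upward by 0.30 relative to total counts, so the falls are larger with total counts. The differences at 21 nt were -0.74 for TAS1A (28534 and 30266 to 16930 and 14180, adjusted p = 1.7e-07), -0.66 for TAS1C, -0.56 for TAS1B, -0.45 for TAS3, -0.30 for TAS2, -0.55 for TAS3b, -0.94 for TASIR-ARF (a TAS3 locus) and 0.63 for AT3G25795 (TAS4). Those of TAS3b and TASIR-ARF did not pass 0.05. TAS2, with 11156 and 11753 counts in WT and 28885 and 29068 in hot3-2, had 8958 and 7477 in HOT3-EYFP. AT3G25795 had 176 and 224 (WT), 1702 and 1831 (hot3-2) and 324 and 226 (HOT3-EYFP), so the mutant's excess at both loci was largely gone.

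Among other gene lists, the disease resistance gene AT5G38850 (TIR-NBS-LRR class) kept part of its loss. Its 21-nt siRNAs counted 1951 and 1998 (WT), 331 and 357 (hot3-2), 226 and 220 (hot3-3) and 680 and 594 (HOT3-EYFP) (-1.45, SE 0.095, adjusted p = 3.24e-05), above hot3-2 by 1.31 (adjusted p = 1.89e-05). A run of 4 windows there, the longest at 21 nt, was led by chr5:15555500 (365 and 407 to 93 and 90, -1.89, SE 0.20). It was the 1 gene called of 20 tested in its class at 21 nt. Of 3 silencing genes, 3 auxin receptors of the miR393 cascade, 17 pentatricopeptide repeat genes, 120 snoRNA and snRNA genes and 12 transposable element genes tested at 21 nt, 0 were called, with medians of -0.41, -0.35, -0.57, 0.14 and 0.19. At 24 nt 0 of 44 transposable element genes were called (median -0.04), and 0 of 105 snoRNA and snRNA genes (median 0.31).

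Small RNAs from nuclear tRNA genes leaned upward at 21 to 24 nt under TMM scaling. At 21, 22 and 24 nt, 2, 4 and 13 genes rose and 1, 2 and 3 fell, of 171, 172 and 193 tested, with medians of 0.28, 0.31 and 0.67. Of all genes tested at 24 nt, 0.86% were called in either direction. The rises included 6 of 9 tRNA-Cys and 5 of 27 tRNA-Ala genes. Many of these genes are identical, so a window's counts depend on where a read with several matches was placed, and families of identical genes were summed. At 24 nt 6 of 49 families rose, at 22 nt 2 of 44 and at 21 nt 1 of 44, and 0 fell. The median log2 difference over families was 0.42, 0.26, 0.48 and 0.66 from 21 to 24 nt, and -0.08, -0.22, 0.09, -0.32 and -0.43 at 18, 19, 20, 25 and 26 nt. Relative to total counts, TMM itself moved log2 differences by 0.30, 0.35, 0.44 and 0.48 from 21 to 24 nt. At 25 and 26 nt it moved them by -0.17 and -0.26. These shifts were of similar size to the medians, so the lean is relative to the bulk of windows of a length. For tRNA-His (AT1G02600 and 5 copies) the counts were 87 and 102 (WT), 157 and 150 (hot3-2), 456 and 461 (hot3-3) and 323 and 251 (HOT3-EYFP) (1.96, SE 0.13, adjusted p = 6.26e-06). For tRNA-Glu (AT1G75970 and 1 copy) they were 216 and 243, 395 and 450, 907 and 891, and 659 and 575 (1.79, SE 0.10, adjusted p = 1.43e-06). In both families all 3 genotypes with a hot3 insertion lay above WT, hot3-3 highest.

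The tRNA-Gly gene AT5G59385 (chr5:23953942-23954013, plus strand, 72 bases) shows how placement enters. Its sequence, shown because 12 genes share it, is this.

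AT5G59385: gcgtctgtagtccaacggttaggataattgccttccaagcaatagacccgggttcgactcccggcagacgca

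The window at chr5:23953900 had 24-nt counts of 122 and 132 (WT), 323 and 631 (hot3-2), 699 and 766 (hot3-3) and 0 and 0 (HOT3-EYFP) (at least 32.7-fold lower). It also fell at 21 nt (37 and 51 to 0 and 0) and 22 nt (34 and 46 to 0 and 0). Summed over the 12 identical genes, the log2 difference was 0.81 at 24 nt and 0.42 at 22 nt. No loss of the RNA was thus seen at 22 and 24 nt. At 21 nt the sum stayed below 0 but was not called. The window was called lower at all 9 lengths, whereas 0 families of identical tRNA genes were called lower at any length. The fall at this window is therefore uncertain. The same holds for the tRNA-Ala window of AT5G43455 at chr5:17459200, at 0 in WT and with 250 and 179 counts at 21 nt in HOT3-EYFP, where 3 identical copies summed to 0.49 (adjusted p = 0.862) at 21 nt, 0.74 (0.759) at 22 nt and 0.99 (0.681) at 24 nt. It also holds for the 22-nt rise in tRNA-Phe at chr4:808300 (0 and 0 to 86 and 25, copies summed 0.41) and the 21-nt rise in tRNA-Ala AT2G47100 at chr2:19344400 (53 and 99 to 189 and 269, summed 0.61), while the 22-nt fall in tRNA-Asn AT2G07764 at chr2:3496400 (84 and 74 to 0 and 0) lay in a window with 19.2% unique 24-mers and was not called with DESeq2 or without WT replicate 1 or either HOT3-EYFP library. In contrast, tRNA-Ala AT5G60963 at chr5:24530100 rose from 57 and 33 in WT to 275 and 182 at 21 nt (2.49, SE 0.31), with 199 and 155 in hot3-2, and its 5 copies summed to 1.34 (adjusted p = 0.00401).

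rDNA windows were called at 22, 23 and 24 nt, 22 rises and 0 falls of 1117 (1.97%). With total counts as library size there were 5. A window of 25S rRNA at chr3:14202100 held 77685 and 86452 counts at 22 nt (WT), 38641 and 43299 (hot3-2) and 172069 and 152040 (HOT3-EYFP) (1.22, adjusted p = 1.33e-11). The 3 largest rises were at chr2:5900, at the end of 5.8S rRNA and the start of ITS2, and in 18S rRNA. At chr2:5900 the 23-nt counts were 374 and 443 (WT), 297 and 214 (hot3-2), 885 and 1010 (hot3-3) and 1601 and 1584 (HOT3-EYFP) (2.30, SE 0.15, adjusted p = 2.4e-07), and the 24-nt counts went from 202 and 194 to 470 and 496 (1.66, SE 0.17). In 18S, chr2:4300 had 24-nt counts of 5069 and 5788 (WT), 1560 and 1652 (hot3-2) and 12830 and 12280 (HOT3-EYFP) (1.58, SE 0.054, adjusted p = 7.42e-09). HOT3-EYFP exceeded WT at these sites, and at the 18S and 25S windows hot3-2 lay below WT.

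Sums over the 2 annotated 45S copies, scaled to total counts, gave smaller differences. 25S at 22 nt went from 34800 and 35300 CPM (counts scaled to the total of the library) in WT to 48600 and 49800 in HOT3-EYFP (0.49, SE 0.015), with 22500 and 23200 in hot3-2. From 21 to 24 nt the 18S region differed by 0.11 to 0.28, its 3′ part by 0.14 to 0.20, 25S by 0.24 to 0.49 and ITS1 by -0.06 to 0.06. The 3′ part of 18S at 21 nt had 3190 and 3210 CPM (WT), 4910 and 4750 (hot3-2) and 3570 and 3620 (HOT3-EYFP). There hot3-2 minus WT was 0.59 (adjusted p = 2.64e-08) and HOT3-EYFP minus hot3-2 -0.43 (adjusted p = 1.81e-07). At 22, 23 and 24 nt hot3-2 minus WT was -0.30, -0.80 and -0.74. Strands were not separated in these counts. 5.8S ranged from -0.14 at 21 nt to 0.33 at 23 nt, and its sign at 21 nt turned with other scalings. The 5′ ETS, which hot3-2 had above WT by 1.28 at 21 nt, was at -0.22 there and at -0.52 at 24 nt (adjusted p = 0.00106). ITS2 was the 1 region past 2-fold, at 23 nt (78.2 and 81.3 to 220 and 243 CPM, 1.54, SE 0.11, adjusted p = 1.22e-06), and was at -0.42 at 21 nt.

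In the organelles, 16 of 4034 chloroplast combinations rose and 2 fell (0.446%), and 21 of 788 mitochondrial ones rose and 0 fell (2.66%). With total counts as library size these were 3 (1 higher) and 6 (all higher). Leaving out WT replicate 1, WT replicate 2, HOT3-EYFP replicate 1 or HOT3-EYFP replicate 2 gave 11, 12, 8 and 11 chloroplast and 4, 5, 9 and 7 mitochondrial calls. The largest chloroplast rises lay in ndhJ at 23 nt (115 and 101 to 258 and 206, 1.42, SE 0.18) and ndhK at 24 nt (235 and 247 to 542 and 429, 1.37, SE 0.11), both of the NDH complex, and in the ribosomal protein genes rpl2 and rpl23 at 23 nt (151 and 173 to 343 and 288, 1.29, SE 0.15). None of these 3 was called with total counts. The window of trnN at chrC:129500, a chloroplast tRNA-Asn gene, fell at 22 nt from 73 and 60 in WT to 2 and 2 (-4.76, SE 0.71, adjusted p = 0.000713), with 33 and 32 in hot3-2 and 3 and 27 in hot3-3, a call lost without either HOT3-EYFP library. The 18-nt fall at chrC:200 (149 and 189 to 81 and 56, -1.44, SE 0.19) was lost in the fit of 4 libraries, with the block, with DESeq2 and without any 1 library.

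In the mitochondrion the largest rises were at chrM:10000, at 23 nt (51 and 49 to 168 and 142, with 46 and 37 in hot3-2, 1.95, SE 0.22, adjusted p = 5.97e-05) and at 21 nt (58 and 96 to 250 and 243, 1.87, SE 0.24). A rise at chrM:361100 at 23 nt (13 and 18 to 38 and 44, 1.73, SE 0.33) was not called when library size was the total count, in the fit of 4 libraries, with the block, with DESeq2 or without any 1 library. Mitochondrial windows were not annotated, because the chromosome's length in the files (3670 windows) differs from that of the reference (3679).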

How the data were processed

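Small RNAs of 18 to 40 nt were gel-purified from total RNA of 18-day-old seedlings, and libraries were made with the NEBNext small RNA kit and sequenced on a HiSeq 2500. The authors deposited raw counts per 100-bp window and length, made with pRNASeqTools. The submitters' processing notes name cutadapt 4.2, Bowtie, featureCounts 2.0.3 and DESeq2 1.34.0. How reads with several matches were placed in these windows is not given in the sources used here. The study split strands in a separate mapping to an rDNA reference with ShortStack, and whether the window files were made in that way is not stated. The deposited counts have 1 value per window, and 21-nt counts at miRNAs fell in the window of the leftmost base. Window numbers match TAIR10.1 for chromosomes 1 to 5 and the chloroplast.

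From these counts, each length was fitted on its own over all windows that reached 10 counts in 2 or more libraries, using edgeR 4.0.16 (R 4.3.3): TMM factors, a quasi-likelihood model with genotype as factor over all 8 libraries, and the contrast HOT3-EYFP minus WT. Adjusted p-values are Benjamini-Hochberg over all windows or genes of a length. Gene counts are sums over the windows that overlap a gene, so neighbours can share a window. rDNA regions were scaled by total counts. The SE was derived from the fold change and its F statistic. Where a group was at 0, folds use a floor of 3 counts per library, and ratios with 1 to 3 counts carry 95% counting intervals. Both cover counting error only. The fit was tested on simulated data.

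Named nuclear windows were, at 21, 22 and 24 nt, the 5 largest rises and falls with at least 50 counts over the 4 libraries (called windows within 500 bp merged, both HOT3-EYFP libraries beyond both WT libraries), plus the longest run. MIR genes were the 5 largest at 21 nt and the largest at 20, 22 and 24 nt. Organelle and rDNA windows were the 3 largest each way. HOT3, TAS genes and rDNA regions were named throughout. AT5G38850 as a gene, further MIR genes (MIR400, MIR165a, MIR166a, MIR166e, MIR163, MIR779, MIR396a, MIR397b), windows named at lengths beyond those of the rule, the tRNA families and the window at chr3:14202100 were named after their values were seen. The members, lists and rules were chosen with earlier results of these data known. Alternatives were other scalings (total counts, DESeq2 size factors), DESeq2 1.42.0 as test, 4 libraries, a replicate block, other filters and limits, each library left out, and, chosen after seeing the data, identical copies summed.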

Additional observations from a re-analysis of the deposited data

How the results depend on the processing

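Counts of called windows depended on the limits, the filter and the libraries used. For nuclear windows at 21, 22 and 24 nt, at the other lengths, for rDNA, chloroplast and mitochondrial windows and for MIR genes, they were 32, 46, 105, 78, 22, 18, 21 and 13. An adjusted p under 0.05 with no fold limit gave 109, 102, 260, 239, 469, 245, 70 and 30, and with the 2-fold limit 67, 83, 218, 188, 25, 39, 59 and 17. Without a filter they were 96, 84, 330, 419, 30, 24, 36 and 24. Total counts as library size left 5, 3 and 6 rDNA, chloroplast and mitochondrial windows. The fit of 4 libraries called 8 MIR genes. Leaving out 1 library gave 16 to 25, 25 to 33, 54 to 73, 40 to 51, 20 to 23, 8 to 12, 4 to 9 and 7 to 12. DESeq2 gave 29, 33, 130, 107, 24, 23, 23 and 12. The cause of these shifts was not tested, except that fewer libraries leave fewer degrees of freedom.

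Of 67 named windows and genes called, 57 kept direction and call when library size was the total count, 52 in the fit of 4 libraries, 56 with DESeq2, and 44 or 45 without 1 library. No named call turned sign except the tRNA-Gly window with copies summed (0.42 at 22 nt, 0.81 at 24 nt). Uncalled TAS values turned for TAS2 at 24 nt with total counts (-0.38), for TAS3 at 24 nt (-0.03, from -0.26 to 0.24 without 1 library) and for TASIR-ARF at 22 nt (-0.42, from -1.28 to 0.17). 5.8S at 21 nt turned from -0.14 to 0.17 with DESeq2 size factors, 0.16 with TMM and with DESeq2, and 0.23 with nuclear counts. Over nuclear windows only, the share differences in percentage points at 18 to 24 and 26 nt were 1.0, 1.09, 0.66, -2.19, 0.0917, -0.439, -2.03 and 0.584.

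Replicate numbers did not pair the libraries: the correlation of WT and HOT3-EYFP deviations between same-numbered libraries was -0.10 at 21 nt and 0.01 at 24 nt. With the replicate number as a block, 21, 48 and 98 nuclear windows were called at 21, 22 and 24 nt, and 57 of the 67 named calls stood. Windows with 1 to 3 counts in a group are limited by depth.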
